A study of Homo sapiens with 4 samples.

Results

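The genes described here encode the ubiquitin conjugating enzymes, or E2 enzymes, whose symbols begin with UBE2. They were taken by name as every gene row whose symbol starts with UBE2 followed by a letter and holds no hyphen, which gave 41 of the 25411 genes in the deposited tables. Expression was measured by RNA sequencing in BEAS-2B, an immortalized line of human bronchial epithelial cells grown in Dulbecco's Modified Eagle's Medium. The study compared 2 control libraries, from cells grown for 72 h with no metal, with 2 libraries from cells given 5 µM cadmium chloride (CdCl2) for 72 h. The series title is about miR-30e and SNAI1, the gene of the SNAIL1 protein, and the E2 genes were not its subject. The source labels name the controls "Expt 1" and the cadmium cultures "Expt 2", so treatment and experiment cannot be told apart. No label says whether the 2 libraries of a group came from separate cultures, so the p-values below measure how far these libraries differ, and that difference may be technical only.

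Ubiquitin is attached to proteins by a chain of 3 enzyme classes. An E1 enzyme activates ubiquitin, an E2 enzyme takes it over onto a cysteine of its own, and an E3 ligase brings the E2 to the protein that is to be marked. The E2 has a large part in which kind of ubiquitin chain is built, and with it whether the marked protein goes to the proteasome or is used in signalling or DNA repair. A few members carry related proteins in place of ubiquitin, such as NEDD8 or ISG15. Dividing epithelial cells depend on UBE2C and UBE2S, which work with the anaphase-promoting complex to have mitotic cyclins destroyed.

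Sequencing depth differed between libraries, from 8609243 counted reads in the second control to 29937242 in the first cadmium library, and 3 reads, the level a count of 0 allows, correspond to 0.356 CPM, the library-scaled read count, in the shallowest library. The labelled cell type was checked against markers. Of 12 bronchial epithelial markers, 11 had reads, some of them very few, and 8 had enough to be tested. The summed CPM was 1293 and 1515 in the controls and 1212 and 1277 with cadmium. It was carried mostly by the keratins KRT8, KRT7 and KRT18. The markers moved in both directions beneath that sum. KRT7 fell by 1.02 in log2 units (adjusted p = 0.00234), from a mean of 540.5 to 266.8 CPM, and KRT15, DSP and EPCAM, all at under 7 CPM in every library, rose by 2.56, 1.64 and 1.36. The last 3 lost their calls without the first cadmium library (adjusted p = 0.237, 0.0596 and 0.0994), and KRT15 also without the second (0.0540) or without the first control (0.106). TP63, a basal cell marker, had 0 reads in all 4 libraries, and KRT5 and KRT14 had at most 1 read in any library. Of 12 leukocyte markers, 7 were at 0 in all libraries, CD3E and LYZ among them, and the summed CPM, which came mostly from CD68, was 63.1 and 64.3 in the controls against 95.8 and 89.4 with cadmium. The summed CPM of 8 endothelial markers was 1.19 to 1.61 in the controls and 3.67 to 4.05 with cadmium, with PECAM1 at 0. That of 8 fibroblast markers, mostly COL1A1, was 4260 to 5091 and 3818 to 4039, with COL3A1 and DCN at 0, and that of 6 markers of differentiated airway cells did not exceed 1.60 in any library. MALAT1 and NEAT1, long RNAs kept in the nucleus, rose by 0.87 and 0.59 in log2 units, NEAT1 without its call when either cadmium library was left out (adjusted p = 0.0570 and 0.0581). The part of these levels in the results on the E2 genes was not tested.

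Of the 41 rows, 33 had enough reads to be tested, and 32 of these are E2 genes proper. The other one is the pseudogene UBE2Q2P1, which had 17 and 9 reads in the controls against 36 and 22 after cadmium, a log2 fold change of 0.69 with an adjusted p of 0.281. UBE2DNL, UBE2NL, UBE2U and UBE2Q2P2 had 0 reads in all 4 libraries. UBE2E4P, UBE2MP1, UBE2Q2L and UBE2QL1 had at most 9 reads in any library. These 8 rows give no comparison.

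E2 transcripts were more often lower than higher after cadmium. With edgeR's quasi-likelihood test and Benjamini-Hochberg adjustment over 13663 genes at a threshold of 0.05, 8 of the 33 tested members fell (24.2%), where 7.66% of all tested genes did so. One member, UBE2H, rose (3.03%), where 8.85% of all tested genes did so. Among the members that fell were UBE2S, UBE2J2, UBE2M, UBE2E3, UBE2D2, UBE2C and UBE2N. The remaining 24 did not pass the test, and 14 of the 33 had an unadjusted p under 0.05. The median log2 fold change of the tested members was -0.16 and that of all tested genes was 0.0019, and 25 of the 33 members had a negative value. The changes were small, from -0.70 for UBE2S to 0.42 for UBE2H among the E2 genes proper. Both cadmium libraries lay below both controls for 19 of the 33 members (57.6%, against 30.8% of all tested genes) and above both for 3 (9.09%, against 31.3%), and the groups overlapped for 11. The share of all reads that fell on the members was 0.404% and 0.392% in the controls and 0.353% and 0.355% with cadmium.

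The calls depended on both cadmium libraries. Without the first cadmium library only UBE2S was still called among the members, and without the second the same was so. In these fits the calls over all genes also dropped, to 369 higher and 235 lower without the first and to 594 higher and 295 lower without the second, from 1209 and 1046 with all 4 libraries. The lone cadmium library is then taken to vary as the controls do. Without the second control the median log2 fold change was -0.23 over the members and -0.0052 over all tested genes. Without the first control these medians were -0.14 and 0.0075.

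**Figure D1:**
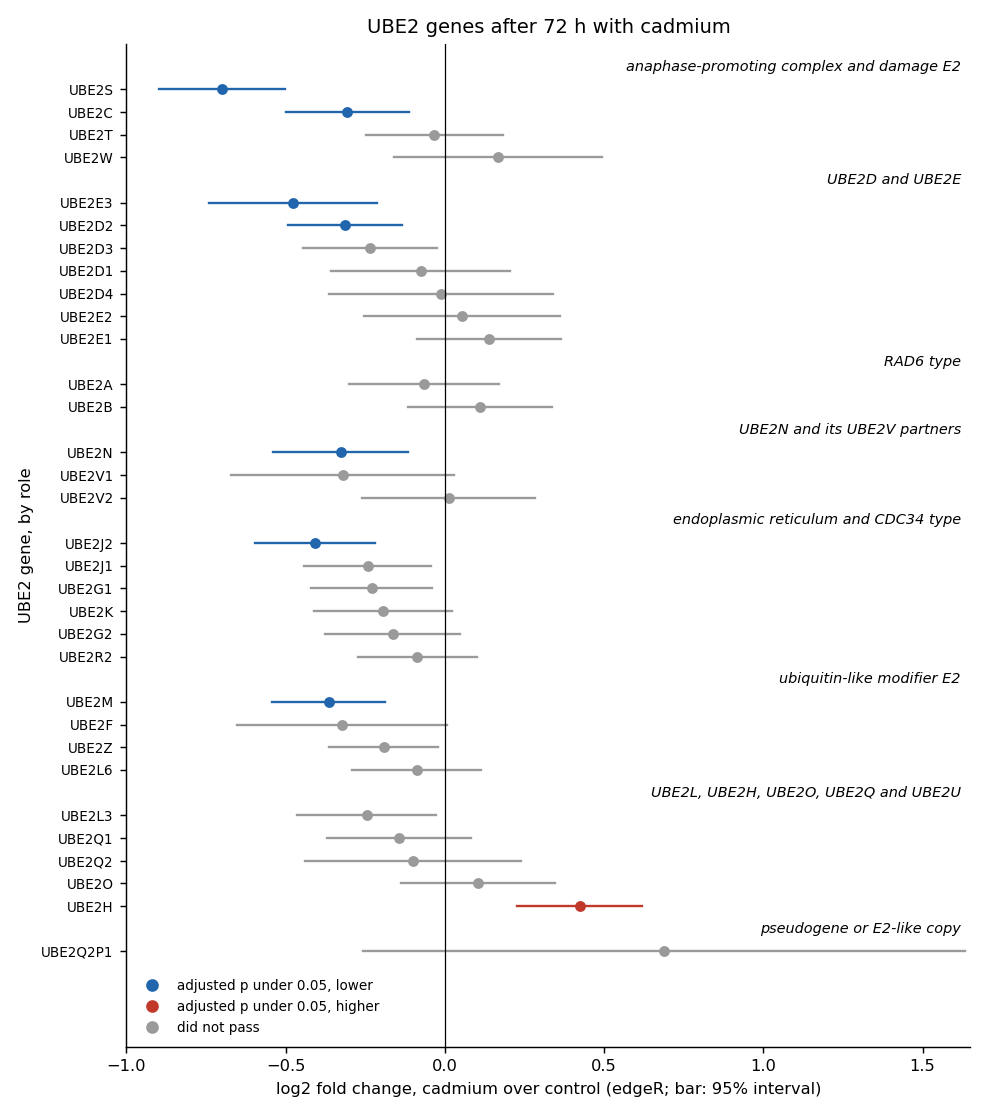
Log2 fold change of the tested UBE2 genes reported here, cadmium over control (points), with its 95% interval from edgeR (bars), grouped by role. The genes that fell (blue) are spread over 5 of the role groups, UBE2H alone rose (red), and most points lie left of 0.

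The 2 E2 enzymes of the anaphase-promoting complex both fell. UBE2C starts the ubiquitin chains on mitotic cyclins and UBE2S extends them. UBE2S, on chromosome 19 from 55912650 to 55919325 of hg19, had 565.7 and 534.0 CPM in the controls and 357.9 and 319.1 CPM with cadmium, so that no cadmium library came near a control. Its mean went from 549.9 ± 22.4 to 338.5 ± 27.4 CPM (SD, n = 2 each), and it fell by 0.70 in log2 units (SE 0.0863, 95% interval -0.90 to -0.50, adjusted p = 0.00432), that is, its level fell by 38.4%. This was the largest decrease among the tested members. Its share of the reads on all members was 13.8% and 13.3% in the controls and 10.4% and 9.14% with cadmium. It was called lower in all 13 alternative analyses, which changed the scaling, the filter on low counts, the tool, the depth, the use of replicate numbers or the libraries included, with log2 fold changes of -0.78 to -0.62.

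UBE2C, on chromosome 20 from 44441672 to 44445596 of hg19, had 231.8 and 224.4 CPM in the controls and 193.3 and 175.3 CPM with cadmium. The groups did not overlap, and UBE2C fell by 0.31 in log2 units (SE 0.0844, 95% interval -0.50 to -0.11, adjusted p = 0.0420). UBE2T, the E2 that adds ubiquitin to the Fanconi anaemia proteins FANCD2 and FANCI at DNA crosslinks, stayed within the spread of the libraries. It had 60.9 and 61.4 CPM in the controls and 61.1 and 58.2 CPM with cadmium, and the 95% interval of its log2 fold change ran from -0.25 to 0.18. UBE2W, which attaches ubiquitin to the amino end of proteins, had a log2 fold change of 0.17 and overlapping groups. The call of UBE2C was lost without the first control (adjusted p = 0.0738) and without the first (0.114) or second cadmium library (0.315), and also with the replicate number as a term of the model (the replicate block, 0.0566), with library size alone as scaling (0.0821) and with a stricter filter of at least 5 CPM in 2 libraries (0.0648).

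Besides UBE2S and UBE2C, many mitotic genes were lower in the cadmium libraries. Of a list of 20 mitotic genes 10 fell (50%, against 7.66% of all tested genes), with a median log2 fold change of -0.30, and their summed CPM was 5225 and 4924 in the controls and 4143 and 4188 with cadmium. PLK1, a kinase of mitotic entry, fell by 0.73, AURKA, a spindle pole kinase, by 0.64, and CCNB1, the cyclin that both E2 enzymes help to remove, by 0.51 in log2 units. Without the first cadmium library 4 of the 20 were called lower and without the second 6. TOP2A and MKI67 were among the 10 genes of the list that did not pass the test, with log2 fold changes of 0.06 and -0.14. In bulk RNA, fewer cells in mitosis and less RNA in each such cell cannot be told apart. The part of the mitotic genes' decrease in that of UBE2S and UBE2C was not tested.

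**Figure D2:**
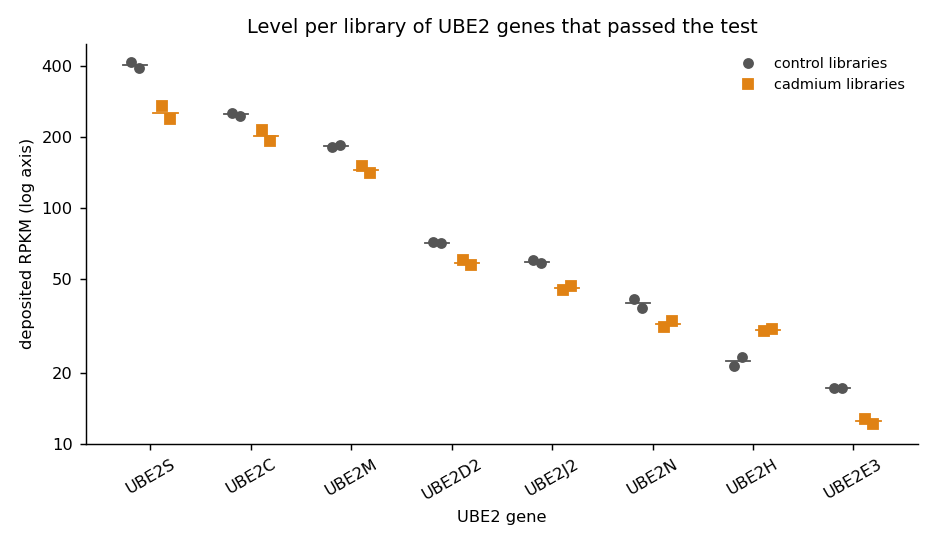
Deposited RPKM (reads scaled to library size and transcript length, log axis) of UBE2S, UBE2C, UBE2M, UBE2D2, UBE2J2, UBE2N, UBE2H and UBE2E3, which passed the test, in each control (circles) and cadmium (squares) library, with the group mean as a short line. For every gene the pairs of points do not overlap, and UBE2H is the one gene whose cadmium libraries lie above the controls.

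The UBE2D and UBE2E enzymes are broadly active E2 enzymes that work with many ligases, and 2 of the 7 fell. UBE2D2, on chromosome 5 from 138940751 to 139008018 of hg19, had 221.9 and 219.6 CPM in the controls and 181.4 and 174.0 CPM with cadmium, and it fell by 0.31 in log2 units (SE 0.0780, adjusted p = 0.0312). UBE2E3, on chromosome 2 from 181845851 to 181928154, had 30.1 and 29.6 CPM in the controls and 21.9 and 20.9 CPM with cadmium. It fell by 0.48 in log2 units (SE 0.115, 95% interval -0.74 to -0.21, adjusted p = 0.0276), the second largest decrease among the tested members. In both genes the controls lay close together and above both cadmium libraries.

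Their 5 closest relatives did not pass the test, and the differences between relatives were not themselves tested. UBE2D3, at a log2 fold change of -0.24 (adjusted p = 0.115), had both cadmium libraries below the controls. UBE2D1, UBE2D4, UBE2E2 and UBE2E1 had values of -0.08, -0.01, 0.05 and 0.14 and overlapping groups. UBE2D4 overlaps the gene POLR2J4 on the other strand, and whether the counting used strand is not given in the sources used here, so its reads are uncertain. The UBE2D genes are also similar enough in sequence for reads to be shared, which the deposited counts do not show. Without the first or second cadmium library the adjusted p of UBE2D2 was 0.152 and 0.224 and that of UBE2E3 0.167 and 0.187, and without the first control that of UBE2E3 was 0.0504. The replicate block (0.0527 and 0.0538) and thinning all libraries at random to the depth of the shallowest (0.0938 and 0.154) also ended both calls, library size alone ended that of UBE2D2 (0.0601) and DESeq2 that of UBE2E3 (0.0523).

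The RAD6 type enzymes UBE2A and UBE2B, which mark histone H2B and the replication clamp PCNA, did not pass edgeR's test and were not called by DESeq2 or limma-voom either, with unadjusted p of 0.544 and 0.296. UBE2B had 79.6 and 69.7 CPM in the controls and 80.0 and 81.8 CPM with cadmium, a log2 fold change of 0.11 with a 95% interval of -0.12 to 0.34 (adjusted p = 0.475). UBE2A had a log2 fold change of -0.07 and overlapping groups.

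UBE2N builds ubiquitin chains used in NF-kB signalling and DNA damage tolerance, and for this it pairs with UBE2V1 or UBE2V2, which lack the active cysteine. UBE2N, on chromosome 12 from 93802088 to 93836026 of hg19, had 120.7 and 110.6 CPM in the controls and 88.8 and 95.9 CPM with cadmium. Both cadmium libraries were below both controls, and UBE2N fell by 0.33 in log2 units (SE 0.0924, 95% interval -0.54 to -0.12, adjusted p = 0.0454). UBE2V2 overlapped between groups, with 55.9 and 46.8 CPM in the controls and 49.6 and 54.9 CPM with cadmium. Its log2 fold change was 0.01 (95% interval -0.26 to 0.28). UBE2V1 did not pass the test, at a log2 fold change of -0.32 (adjusted p = 0.179), which was -0.09 without the first cadmium library and -0.56 without the second (adjusted p = 0.798 and 0.0515). The call of UBE2N was lost without the first control (adjusted p = 0.120) and without the first (0.334) or second (0.128) cadmium library. It was lost as well with the replicate block (0.0695), library size alone (0.0817), the stricter filter (0.0636), DESeq2 (0.0524) and thinning (0.102).

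The value of UBE2V1 depends on how reads were divided with a read-through gene model. The row TMEM189-UBE2V1 covers the whole of UBE2V1 and joins it to its neighbour. UBE2V1 itself had 1532 and 459 reads in the controls against 1179 and 838 after cadmium, and the read-through row had 1056 and 446 reads and 1991 and 938 reads. The share of the joint reads assigned to UBE2V1 was 59.2% and 50.7% in the controls and 37.2% and 47.2% with cadmium. Summed over both rows the level was 99.4 and 107.5 CPM in the controls and 103.5 and 112.4 CPM with cadmium, and on that sum the groups overlapped.

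The 6 UBE2 members of endoplasmic reticulum quality control and of the CDC34 type were all lower in both cadmium libraries than in both controls. Of all tested genes 30.8% were so placed, and only 1 of the 6 passed the test. CDC34 itself, which the name rule leaves out, did not pass edgeR's test, with a log2 fold change of -0.03 (adjusted p = 0.847). UBE2J2, an E2 held in the endoplasmic reticulum membrane that serves the degradation of misfolded proteins, lies on chromosome 1 from 1189292 to 1209234 of hg19. It had 155.8 and 152.2 CPM in the controls and 113.2 and 118.8 CPM with cadmium and fell by 0.41 in log2 units (SE 0.0823, 95% interval -0.60 to -0.22, adjusted p = 0.0160). The log2 fold changes of the others were -0.24 for UBE2J1, its relative in the same membrane, -0.23 for UBE2G1, -0.19 for UBE2K, -0.16 for UBE2G2 and -0.09 for UBE2R2. UBE2J1 and UBE2G1 were the members nearest to the threshold without passing it, with adjusted p of 0.0913 and 0.0914. The adjusted p of UBE2J2 was 0.142 without the first and 0.0627 without the second cadmium library, and it stayed under 0.05 in the other 11 alternatives.

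Among E2 enzymes that carry proteins other than ubiquitin, UBE2M fell. This enzyme, which passes NEDD8 to the cullins and so switches on the largest class of ubiquitin ligases, lies on chromosome 19 from 59067079 to 59070343 of hg19. It had 317.2 and 322.7 CPM in the controls and 255.4 and 241.2 CPM with cadmium and fell by 0.37 in log2 units (SE 0.0772, 95% interval -0.54 to -0.19, adjusted p = 0.0184). UBE2F, the second NEDD8 enzyme, had 25.4 and 20.7 CPM in the controls and 18.0 and 19.4 CPM with cadmium. Its groups did not overlap and its log2 fold change of -0.32 did not pass the test (adjusted p = 0.153). The read-through row UBE2F-SCLY covers UBE2F and had 64 reads in the first cadmium library and 0 in the others. UBE2F itself had 550 reads in that library, so its level there depends on how reads were divided. UBE2Z, which carries FAT10 and ubiquitin, did not pass the test (log2 fold change -0.19, adjusted p = 0.113). The adjusted p of UBE2M was 0.0781 without the first and 0.146 without the second cadmium library, and its call held in the other 11 alternatives.

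UBE2L6, the E2 for the interferon-induced modifier ISG15, did not pass the test, and its groups overlapped. It had 103.0 and 110.0 CPM in the controls and 103.1 and 96.7 CPM with cadmium, with a log2 fold change of -0.09 (95% interval -0.29 to 0.11, adjusted p = 0.523). Of 20 interferon-stimulated genes 5 fell (25%, against 7.66% of all tested genes), with a median log2 fold change of -0.76. Their summed CPM was 1273 and 774 in the controls and 702 and 652 with cadmium, so the controls themselves were far apart. Without the second control 18 of the 20 were called lower, without the first control 4, and without the first or second cadmium library 0 and 1. MX1, an antiviral GTPase, fell by 1.56 in log2 units (adjusted p = 0.0280). ISG15 itself had 5444 and 930 reads in the controls against 2255 and 1160 after cadmium, in libraries of unequal depth. Scaled by library, its mean was 159.8 CPM in the controls and 73.5 CPM with cadmium. At -1.13 in log2 units ISG15 missed the threshold (adjusted p = 0.128). MX1 lost its call without the first (adjusted p = 0.287) or second cadmium library (0.316), with no filter (0.153) and with replicate numbers crossed between the groups as a block (0.0568). Whether the change of UBE2L6 differed from that of the interferon genes was not tested.

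UBE2H was the one member that rose. It works with the CTLH ligase complex and can attach ubiquitin to histones. The gene lies on chromosome 7 from 129470573 to 129592800 of hg19 and had 124.5 and 135.9 CPM in the controls and 171.8 and 176.6 CPM with cadmium. Its mean went from 130.2 ± 8.05 to 174.2 ± 3.38 CPM (SD, n = 2 each), an increase of 34.0% or 0.42 in log2 units (SE 0.0855, 95% interval 0.23 to 0.62, adjusted p = 0.0161). Its adjusted p was 0.0696 without the first and 0.0821 without the second cadmium library, and it was called higher in the other 11 alternatives. Grouped with it by the lack of a narrower shared role were UBE2L3, which serves the RBR and HECT ligases, UBE2O, a large enzyme that acts as E2 and E3 at once, and UBE2Q1 and UBE2Q2. None of these 4 passed edgeR's test, with log2 fold changes of -0.25, 0.10, -0.14 and -0.10, and UBE2L3 alone had an unadjusted p under 0.05, at 0.0322. DESeq2 and limma-voom called none of them either.

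Ratios of reads between members within 1 library do not depend on the scaling between libraries or on gene length when the same pair is compared across libraries. The ratio of UBE2S to UBE2C reads was 2.44 and 2.38 in the controls and 1.85 and 1.82 with cadmium, so UBE2S was lower relative to UBE2C in both cadmium libraries. The ratio of UBE2S to UBE2H reads was 4.54 and 3.93 in the controls and 2.08 and 1.81 with cadmium. UBE2C over UBE2T went from 3.81 and 3.65 to 3.16 and 3.01. These 3 ratios did not overlap between the groups. The pairs were chosen after the data were seen, and each sets a member against one that fell less, did not pass or rose. Their separation thus follows largely from the fold changes above and is no separate result.

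Within families some ratios separated the groups and others did not. UBE2E3 over UBE2E1 was 0.290 and 0.320 in the controls and 0.213 and 0.184 with cadmium. UBE2N over UBE2V2 was 2.16 and 2.36 and then 1.79 and 1.75, and UBE2J2 over UBE2J1 was 1.81 and 1.71 and then 1.54 and 1.60. UBE2N over the UBE2V1 row alone, its other partner, overlapped between groups, at 2.05 and 2.03 against 2.31 and 1.81. That overlap depends on how reads were divided with the read-through row. UBE2N had more reads than both rows together in the controls, 3141 and 931 against 2588 and 905. With cadmium it had fewer, 2719 and 1516 against 3170 and 1776. UBE2D2 over UBE2D3 and UBE2M over UBE2F overlapped too, the first with 1.41 and 1.59 against 1.46 and 1.37. With 2 libraries against 2, an exact permutation test of a ratio cannot give a two-sided p under 0.333, so the ratios are given as a description.

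**Figure D3:**
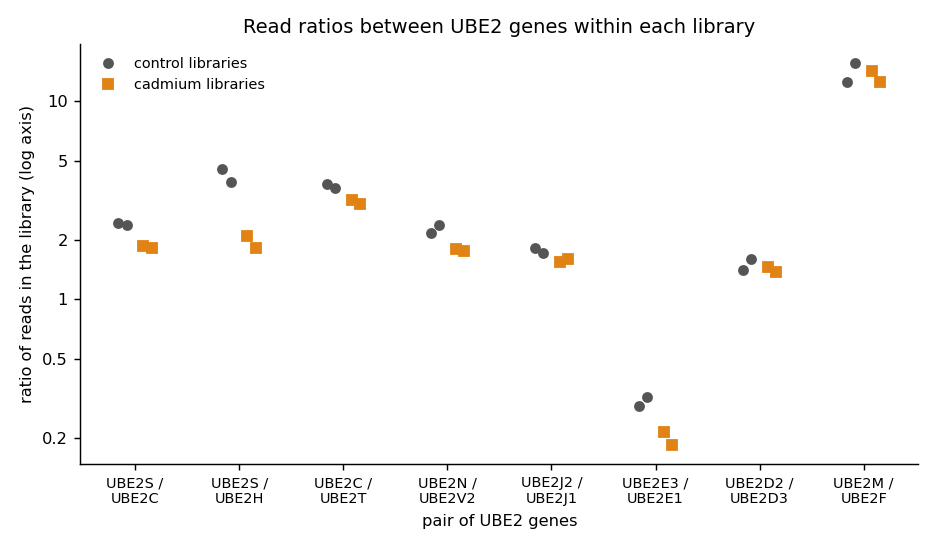
Ratio of reads between pairs of UBE2 genes (log axis) in each control (circles) and cadmium (squares) library. The cadmium libraries lie below the controls for 6 pairs, UBE2S over UBE2H with the widest gap, and overlap with them for UBE2D2 over UBE2D3 and UBE2M over UBE2F. The pairs were chosen after the data were seen.

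Transcript levels can be compared between genes only per length, here as the deposited RPKM. UBE2S had the highest level of all members in the controls, with a mean of 402 RPKM, followed by UBE2C with 248 and UBE2M with 183. UBE2Z, at 92.8 RPKM, and UBE2L6, at 72.2 RPKM, came next, and UBE2D4 and UBE2W, at 2.71 and 2.29 RPKM, were lowest among the E2 genes proper that were tested. With cadmium UBE2S, at 268.8 and 237.1 RPKM, still exceeded UBE2C, at 212.5 and 191.2 RPKM.

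Members with higher control levels tended to have the lower fold changes. Over the 32 E2 genes Pearson's r between log2 control RPKM and log2 fold change was -0.48 and Spearman's rho was -0.38, as a description over genes of the same 4 libraries, whose control values enter both measures. Of the 16 members with the higher levels, 31.8 to 402 RPKM, 7 fell, with a median log2 fold change of -0.23. Of the 16 with the lower levels, 2.29 to 29.4 RPKM, UBE2E3 fell and UBE2H rose, with a median of -0.08. The precision differed as well, with a median SE of 0.0877 in the upper group and 0.117 in the lower.

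**Figure D4:**
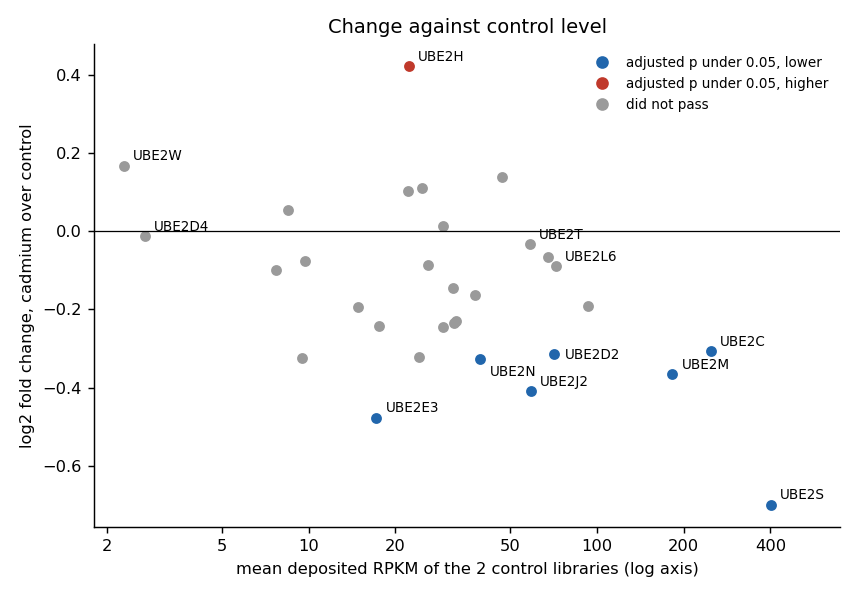
Log2 fold change (cadmium over control) of the E2 genes proper reported here against their mean deposited RPKM in the 2 controls (log axis). The 3 genes with the highest levels, UBE2S, UBE2C and UBE2M, all fell, and UBE2H rose from 22.3 RPKM.

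The authors' deposited table of their own comparison gives the same 9 members with an adjusted p under 0.05, 8 lower and 1 higher. In the authors' deposited table UBE2S had a log2 ratio of -0.67 with an adjusted p of 6.63e-09, and UBE2H a log2 ratio of 0.40 with an adjusted p of 0.00237. That table rests on the same 4 libraries and is no separate measurement.

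The genes around the E2 step were read from 9 lists that hold 123 tested genes, of which 4 rose (3.25%, against 8.85% of all tested genes) and 11 fell (8.94%, against 7.66%), with a median log2 fold change of -0.08. E2 and E2-like genes named otherwise, such as CDC34, BIRC6 and the autophagy enzymes ATG3 and ATG10, gave no call among 8 with edgeR, DESeq2 or limma-voom, and 1 of them, ATG3, had an unadjusted p under 0.05 (log2 fold change -0.28, adjusted p = 0.0806). TSG101, an E2-like protein with no active cysteine, followed by p at a log2 fold change of -0.16. UBA1, the main E1 for ubiquitin, had 897.6 CPM on average in the controls and 897.5 CPM with cadmium.

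Of the modifiers themselves, several were lower. URM1 and SUMO3, small proteins of the ubiquitin family, fell by 0.61 (adjusted p = 0.00600) and 0.56 (adjusted p = 0.00697) in log2 units, and FAU, which encodes a ubiquitin-like protein fused to a ribosomal protein, fell by 0.38 (adjusted p = 0.0145). The ubiquitin genes UBB and RPS27A did not pass the test, with log2 fold changes of -0.11 and -0.20. URM1 and SUMO3 kept their calls without any 1 library, and FAU lost its call without the first (0.110) or second (0.0745).

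Ligases and cofactors that work with E2 enzymes had few calls. Of 17 subunits and activators of the anaphase-promoting complex, 13 had both cadmium libraries below both controls (76.5%, against 30.8% of all tested genes) and 2 fell (11.8%, against 7.66%), CDC20 by 0.53 (adjusted p = 0.00705) and FZR1 by 0.34 (adjusted p = 0.0230) in log2 units. These are the activators that choose its substrates in mitosis and after it. The lower calls on this list numbered 4 without the first control, 6 without the second, and 1 without either cadmium library. FZR1 lost its call without the first (adjusted p = 0.143) or second (0.144) cadmium library. Of 15 cullin and neddylation genes 1 fell (6.67%, against 7.66% of all tested genes). This was DCUN1D5, which helps NEDD8 onto cullins and fell by 0.56 (adjusted p = 0.0115). Its call was lost without the first or second cadmium library, at log2 fold changes of -0.57 and -0.53. Of 12 RBR ligases 1 fell (8.33%, against 7.66%), RBCK1, a part of the linear chain ligase, by 0.40 (adjusted p = 0.0316). The call of RBCK1 was lost without the second cadmium library (log2 fold change -0.30) and with library size alone (adjusted p = 0.0541).

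The list of 18 genes of endoplasmic reticulum associated degradation, in which UBE2J2 works, had 3 members that fell (16.7%, against 7.66% of all tested genes) and a median log2 fold change of -0.01. DERL2, a membrane protein of the exit channel, fell by 0.49 (adjusted p = 0.0241), NPLOC4 by 0.33 (adjusted p = 0.0395) and VCP, the ATPase that NPLOC4 serves, by 0.29 (adjusted p = 0.0365). Without the first cadmium library their adjusted p was 0.153, 0.226 and 0.301, and without the second 0.0538, 0.103 and 0.103. DERL2 was also lost without the first control (0.0685) and NPLOC4 without the second (0.0563). Library size alone (0.0703 and 0.0697) and the stricter filter (0.0559 and 0.0540) ended the calls of NPLOC4 and VCP, and the replicate block (0.0586) and thinning (0.0649) that of VCP.

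Genes of the Fanconi and RAD6 damage pathways had a positive median log2 fold change, 0.16 over 19 genes. Of the 19, 2 rose (10.5%, against 8.85% of all tested genes). HLTF, a ligase for PCNA, rose by 0.48 (adjusted p = 0.0104) and FANCD2, the protein that UBE2T marks, rose by 0.42 (adjusted p = 0.0252) in log2 units. HLTF was lost without the first cadmium library (adjusted p = 0.0533) and FANCD2 without the first (0.0790) or second (0.184) and with thinning (0.0579). Of 13 SUMO ligases and proteases 1 rose (7.69%, against 8.85% of all tested genes), PIAS1, by 0.45 (adjusted p = 0.0437). PIAS1 was lost without the first control (0.0754), without the first (0.111) or second (0.326) cadmium library, and with the replicate block (0.0733), DESeq2 (0.0809) and thinning (0.0626).

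**Figure D5:**
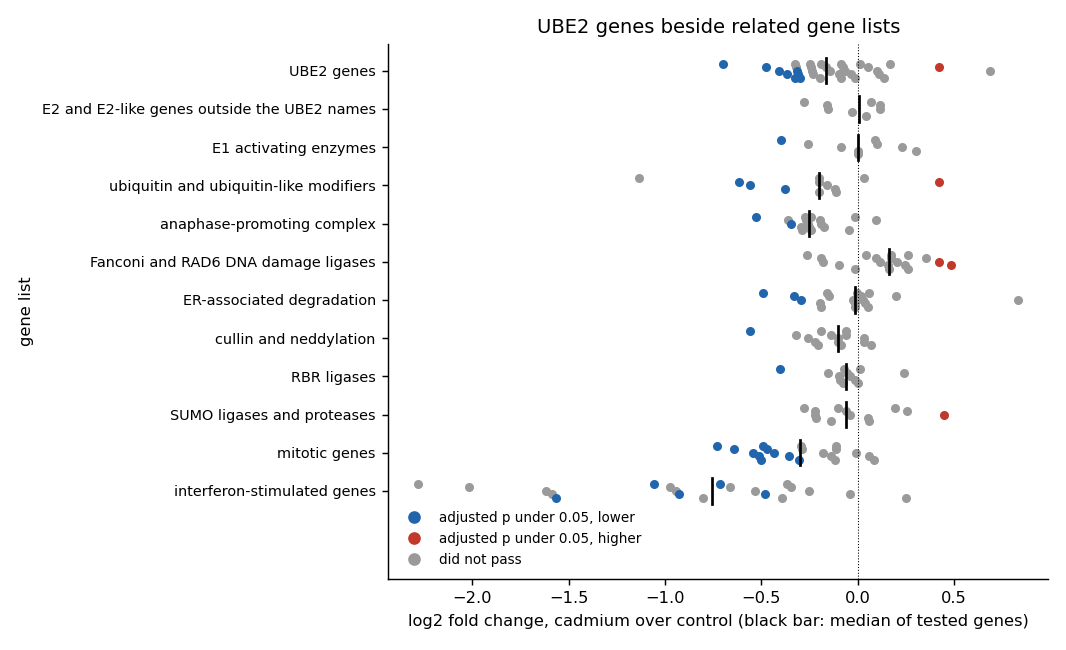
Log2 fold change (cadmium over control) of every tested gene in the UBE2 set, in the 9 lists around it and in the mitotic and interferon lists, with the median of each as a black bar. The medians run from -0.76 for the interferon genes to 0.16 for the Fanconi and RAD6 list, with the UBE2 genes at -0.16.

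Sequence features that the name rule did not use were read from the promoters and 3′ untranslated regions. RefSeq promoter sequences of GRCh38.p14 were matched by symbol for 27 members, 25 of them tested, and 6 of these fell. The window searched was the 250 bases before the start site, on both strands. A gene with several promoter entries, such as UBE2E3, had several windows, and a match in any of them counted. The shares of genes with a match thus also depend on the number of windows per gene, which was not compared. The promoter of UBE2S is shown because this gene had the largest decrease, and those of UBE2J2 and UBE2D2 for comparison with 2 other genes that fell. The windows are chr19:55407789-55408038, chr1:1273855-1274104 and chr5:139561089-139561338, the first 2 on the minus strand and the last on the plus strand. Capitals mark matches to the CCAAT box (CCAAT, or ATTGG on the other strand) and to the core of the metal response element (TGCGCNC or TGCACNC).
UBE2S: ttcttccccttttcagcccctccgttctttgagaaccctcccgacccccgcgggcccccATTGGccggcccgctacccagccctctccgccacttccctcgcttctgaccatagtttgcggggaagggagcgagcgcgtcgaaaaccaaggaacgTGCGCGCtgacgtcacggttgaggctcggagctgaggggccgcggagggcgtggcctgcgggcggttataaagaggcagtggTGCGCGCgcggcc
UBE2J2: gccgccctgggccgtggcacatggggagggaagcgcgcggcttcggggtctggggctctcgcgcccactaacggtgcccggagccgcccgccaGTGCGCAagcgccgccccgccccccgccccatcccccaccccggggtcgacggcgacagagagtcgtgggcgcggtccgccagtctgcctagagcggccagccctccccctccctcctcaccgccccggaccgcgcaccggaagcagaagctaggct
UBE2D2: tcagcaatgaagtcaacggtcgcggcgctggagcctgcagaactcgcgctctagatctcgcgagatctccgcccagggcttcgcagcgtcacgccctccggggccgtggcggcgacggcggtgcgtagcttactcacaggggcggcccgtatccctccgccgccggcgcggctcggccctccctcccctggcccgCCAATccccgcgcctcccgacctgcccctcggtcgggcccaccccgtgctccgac
The UBE2S window holds 1 CCAAT match, 191 bases before the start site, and 2 matches to the metal response element core, 95 and 13 bases before it. No match overlaps another in the printed windows. The UBE2J2 window holds 1 core match at 157 bases and the UBE2D2 window 1 CCAAT match at 55 bases.

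The CCAAT box, known from promoters of mitotic genes, was present in 8 of the 25 tested members (32%) and in 41.3% of 9982 tested genes with a promoter. It was in 3 of the 6 members that fell, UBE2S, UBE2D2 and UBE2E3. TTTGAA, a short form of the cell cycle homology region, was in 2 members (8%) and in 11.5% of all, and in none of the 6. The metal response element core was in 18 of the 25 members (72%) and in 40.2% of all, and in 4 of the 6, UBE2S, UBE2J2, UBE2N and UBE2E3. The member windows were also richer in G and C, at 69.4% against 63.5%, and the core is itself rich in these bases. TGACNNNGC, the antioxidant response element core, was in 4 members (16%) and 15.8% of all, and the interferon response element in 1 member, UBE2D3, and 3.37% of all, with no match in the window of UBE2L6. A match is a run of letters and does not show that a factor binds there.

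The title of the series names miR-30e, so matches to its seed were also counted. The mature RNA is printed with its seed in capitals, and beside it the 3′ untranslated sites of UBE2D2 and UBE2J2, members with a match that fell, with the 7-base match in capitals, each a window of 30 bases from the longest coding transcript of GENCODE v29 on GRCh38.
hsa-miR-30e-5p: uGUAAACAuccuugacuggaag
UBE2D2: ccctgtgcacaTGTTTACctgatacagcag
UBE2J2: atttacaaatgTGTTTACagtcagaatgaa
The match TGTTTAC was present in 10 of 32 tested members with a 3′ untranslated region (31.2%) and in 18% of 12043 tested genes with one. They include UBE2D1, UBE2D2, UBE2D3, UBE2F, UBE2G1, UBE2J1, UBE2J2, UBE2K and UBE2V2. The regions of the 10 were longer, with a median of 2628 bases against 1667 in the 22 members without a match and 1347 over all tested genes. Of the 10, 3 fell, with a median log2 fold change of -0.24. Of the 22, 5 fell and 1 rose, with a median of -0.09. Of all tested genes 7.66% fell and 8.85% rose. These values were not computed for all tested genes with a match, and the part of the match in the changes was not tested. UBE2S, UBE2C and UBE2M, the members with the highest levels, had no match. Levels of the mature miRNA were not analysed here.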

How the data were processed

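RNA was sequenced from BEAS-2B cells, 2 control and 2 cadmium libraries. Per the labels' protocols, RNA came from a column kit and went into TruSeq libraries. The submitters' processing notes name STAR 2.4, DESeq2, DESeq and the build hg19. The read counter, annotation release and strand setting were not given in the sources used here. Read counts, RPKM, log2 ratios and p-values were used as the authors deposited them. Gene coordinates are the deposited hg19 ones and are counted from 1.

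Counts of all genes were fitted with edgeR 4.0.16 in R 4.3.3 (its default filter on low counts, TMM scaling, robust quasi-likelihood), and p-values were adjusted over 13663 genes by Benjamini-Hochberg. The fit used no covariates, and the code was tested on simulated data. CPM values are scaled by TMM. The members, lists and tests were chosen with earlier results of these data known. The genes named were the members that passed, the member of each role group with the smallest p and, from each list, up to 4 genes that passed or the 2 with the smallest p. UBE2T, UBE2V1, UBE2V2 and UBE2L6, the relatives of called members, and genes such as UBA1, UBB, ISG15, TOP2A and MKI67 were named after their values were seen. The read ratios, the sum over UBE2V1 and its read-through row, and the promoter and miR-30e searches were likewise added after the data were seen.

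A few genes that enter the counts and medians are not reported here by name. The fits were repeated with the replicate number as a block, with DESeq2's size factors, with library size alone, no filter, a filter of at least 5 CPM in 2 libraries, DESeq2 1.42.0, limma-voom (limma 3.58.1), counts thinned to 8609243 reads, and leaving out each library. Same-numbered libraries did not deviate together (r = -0.14 over 13663 genes), so the numbers were not taken as pairs. Intervals and the limit of 3 reads cover counting error and the spread of these libraries only.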

Additional observations from a re-analysis of the deposited data

How the results depend on the processing

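The 13 alternatives left the median log2 fold change of the UBE2 members negative in every case, from -0.23 to -0.13 when 1 library was left out and at -0.11 with library size alone, where the median over all genes moved to 0.06 and the share of higher calls went to 67.9%. The number of lower members was 8 in the reported fit, 3 with the replicate block, 4 when scaled by library size alone, 5 under the stricter filter, 5 in DESeq2, 4 with thinned counts and 1 to 11 with 1 library left out, and that of higher members was 0 to 1 with 1 library left out. UBE2S was lower in all 13, and UBE2H, UBE2J2 and UBE2M lost their calls only without a cadmium library. The block ended the calls of UBE2C, UBE2D2, UBE2E3 and UBE2N, among others. With the replicate numbers crossed between groups, chosen after seeing the data, 8 members were lower and 1 higher.

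Over all genes, thinning gave 693 higher and 568 lower, library size alone 682 lower, and leaving out 1 library 369 to 1977 higher and 235 to 1791 lower. Of the pathway genes, 4 were higher and 11 lower in the reported fit. Thinning gave 2 higher, library size alone 7 lower, no filter 17 lower, the crossed block 17 lower, and leaving out 1 library 1 to 6 higher and 3 to 20 lower. Of 427 values of single members under an alternative 18 changed sign, all in members that passed no test. These were UBE2A without the first control (0.013) and the first cadmium library (0.048), UBE2D1 thinned (0.018) and without the first control (0.052), and UBE2D4 scaled by library size alone (0.046), under the stricter filter (0.026), thinned (0.060), without the first control (0.020) and without the second cadmium library (0.060). UBE2O (-0.023) and UBE2Q2 (0.14) did so without the first control, UBE2T scaled by library size alone (0.025), under the stricter filter (0.0050) and without the second cadmium library (0.0014), and UBE2V2 with limma-voom (-0.017), thinned (-0.056), without the second control (-0.11) and without the second cadmium library (-0.058). Over the 4 fits that left out 1 library the values ran from -0.18 to 0.048 for UBE2A, -0.18 to 0.052 for UBE2D1, -0.089 to 0.060 for UBE2D4, -0.023 to 0.22 for UBE2O, -0.27 to 0.14 for UBE2Q2, -0.065 to 0.0014 for UBE2T and -0.11 to 0.15 for UBE2V2. The cause of these changes was not tested, apart from the fewer libraries or reads that leaving out and thinning leave.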
